A study of Mus musculus with 4 samples.

Results

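The CCT chaperonin, also called TRiC, is built from 8 different subunits, and the genes Tcp1, Cct2, Cct3, Cct4, Cct5, Cct6a, Cct7 and Cct8 that encode them were examined here. They were selected by name from a table of 55418 gene symbols, of which 18444 passed the filter on low counts, and all 8 passed it. RNA-seq had been performed on mouse embryonic stem cells (ESCs) of the line E14, cultured on gelatin in medium with serum and LIF, to ask how loss of the kinase Pim3 changes the transcriptome. The cells, labelled with the strain 12910la, were otherwise untreated in both groups as far as the labels say. WT ESCs gave 2 libraries. Pim3-/- ESCs gave the other 2 libraries, 1 from each of 2 clones in which CRISPR/Cas9 with 2 sgRNAs had been directed at exons 4 and 6 of Pim3. Which replicate number stands for which clone was not given, and effects of the genotype and of clonal or culture history cannot be told apart with these libraries.

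CCT is an ATP-driven folding machine of the cytosol. Each of its 2 stacked rings holds every subunit once, in a fixed order, and the closing rings enclose a newly made protein. Actin and tubulin are its best known and obligate clients, WD-repeat proteins such as Cdc20 and G protein beta subunits are others, and prefoldin, phosducin-like proteins and the Hsp70 system act with it. The subunits also differ in their use of ATP: Cct2, Cct4, Cct5 and Cct7 lie on the side of the ring that binds ATP with higher affinity, and Tcp1, Cct3, Cct6a and Cct8 lie on the side with lower affinity.

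The 8 genes are not clustered in the genome but lie on 8 different chromosomes. In GRCm38, Tcp1 (the alpha subunit) is at chr17:12915701-12925067 on the plus strand, Cct2 (beta) at chr10:117051001-117063814 on the minus strand, Cct3 (gamma) at chr3:88297116-88321767 on the plus strand and Cct4 (delta) at chr11:22990519-23003780 on the plus strand. Cct5 (epsilon) is at chr15:31590800-31601804 on the minus strand, Cct6a (zeta) at chr5:129786998-129846371 on the plus strand, Cct7 (eta) at chr6:85451514-85468475 on the plus strand and Cct8 (theta) at chr16:87483326-87495873 on the minus strand.

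Promoter sequences of RefSeq (GRCm38.p6) were matched for 7 of the 8 genes, all but Cct4, and up to 250 bases upstream of the start were searched on both strands. G and C made up 45.2% (Cct5) to 66.4% (Cct7) of these windows, beside a median of 52.0% over all 27025 windows of the same kind. Only the window of Cct5 was below that median. A GC box (GGGCGG), the letters bound by Sp1-type factors, was present in 7 of 7 windows, against 33.0% of the 27025 windows. CCAAT was found in 4 of them (Tcp1, Cct3, Cct6a and Cct7), against 34.5% of all windows, and the ETS-type motif CCGGAAG in 2 (Cct2 and Cct8), against 7.07%. The heat shock type motif TTCNNGAA was found in 1 (Cct5), against 7.18% of all windows, and TATAAA in 0, against 13.0%. The other motifs searched, GAANNTTC, CACGTG, TGACGTCA and the longer motifs of NRF1 and YY1, were in 0 of the 7 windows, against 6.79, 6.04, 1.60, 0.777 and 0.215% of all windows. None of these matches was tested for binding, and the part of the G and C content in them was not tested. The windows of Cct2 and Cct8 are shown because both carry the GC box together with the ETS-type motif while Cct8 was among the more strongly and Cct2 among the less strongly lowered subunits. Both are written 5′ to 3′ on the minus strand, with the GC boxes and the ETS-type motif, in either orientation, in capitals. The window of Cct2 is chr10:117063853-117064102, that of Cct8 is chr16:87495874-87496119, and the latter overlaps the gene body of B130034C11Rik.
Cct2: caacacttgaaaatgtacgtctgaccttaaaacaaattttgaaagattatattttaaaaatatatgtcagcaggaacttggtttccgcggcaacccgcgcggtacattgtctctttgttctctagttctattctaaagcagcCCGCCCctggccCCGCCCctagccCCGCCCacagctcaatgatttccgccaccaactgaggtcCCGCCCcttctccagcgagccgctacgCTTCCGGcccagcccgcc
Cct8: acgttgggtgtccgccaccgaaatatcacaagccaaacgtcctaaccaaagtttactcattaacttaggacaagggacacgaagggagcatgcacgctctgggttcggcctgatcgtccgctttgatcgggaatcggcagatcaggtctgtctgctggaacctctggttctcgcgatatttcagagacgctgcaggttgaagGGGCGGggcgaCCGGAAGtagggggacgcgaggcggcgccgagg

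The gene table held 22029427 to 25668307 counts per library, so that each subunit was counted between 8196 and 28271 times in a library. Counting error is small beside the spread between the Pim3-/- libraries. For Cct2 this does not hold between the WT libraries, whose levels were almost equal. Values below are CPM, counts per 1000000 counts of the library, after scaling with the TMM factors of edgeR (0.828 and 0.883 in WT, 1.17 in both Pim3-/- libraries). Over all tested genes the log2 fold change (Pim3-/- over WT) had a median of 0.07 with these factors and of 0.52 with library totals, a shift of the whole scale by 0.449. Pim3 itself was counted 4392 and 4953 times in WT against 4970 and 4804 times in the libraries labelled Pim3-/- (log2 fold change -0.27, standard error 0.17, Benjamini-Hochberg adjusted p = 0.251, edgeR's quasi-likelihood test). The count is a sum over the whole gene, in which reads of the targeted exons are not kept apart, so it does not check the labels, and all directions are those between libraries as labelled. The ESC markers were expressed in all libraries, with summed levels of 9790 to 10876 CPM in WT and 6618 to 6969 CPM in Pim3-/- ESCs. Of these 10 genes, Pou5f1 (log2 fold change -1.12), Nanog (-0.90), Dppa5a (-0.97) and Utf1 (-0.97) were called lower and Klf4 (1.44) higher. With library totals only Pou5f1 (-0.67) was called lower, and Klf4 (1.88), Sox2 (0.83) and Tdgf1 (0.78) were called higher. The paper reported higher Nanog in Pim3-/- ESCs, from qPCR and a western blot of NANOG, with Oct4 (Pou5f1) and Sox2 not disrupted by qPCR. The part of the ESC markers in the lower CCT levels was not tested.

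In WT ESCs the 8 transcripts were all abundant and of similar level. Levels are per kilobase of the principal transcript, except for Cct6a, for which a transcript annotated as a processed transcript gave the length. Cct5 was highest, at 697 ± 34.2 CPM per kb (SD, n = 2). Cct2 at 563 ± 1.11, Cct3 at 553 ± 27.5 and Cct8 at 487 ± 20.5 followed. Cct6a at 415 ± 13.2, Cct7 at 412 ± 19.5 and Tcp1 at 387 ± 37.2 CPM per kb came next, and Cct4 was lowest at 265 ± 18.2. The highest subunit thus exceeded the lowest 2.59-fold in one WT library and 2.67-fold in the other. Of the 7 neighbouring pairs in this order, 5 kept their order in both WT libraries, whereas Cct2 with Cct3 and Cct6a with Cct7 did not. The order depends on the transcript length used: with all annotated exons as the length, Cct7 was the lowest and Cct5 remained the highest.

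In Pim3-/- ESCs the order was Cct2 (354 ± 28.3 CPM per kb, SD, n = 2), Cct5 (337 ± 62.9), Cct7 (273 ± 62.2), Cct3 (238 ± 67.0), Tcp1 (221 ± 47.3), Cct8 (214 ± 12.6), Cct6a (184 ± 37.4) and Cct4 (144 ± 28.8). Only 3 of the 7 neighbouring pairs kept this order in both Pim3-/- libraries, so most neighbours did not differ beyond their spread.

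**Figure D1:**
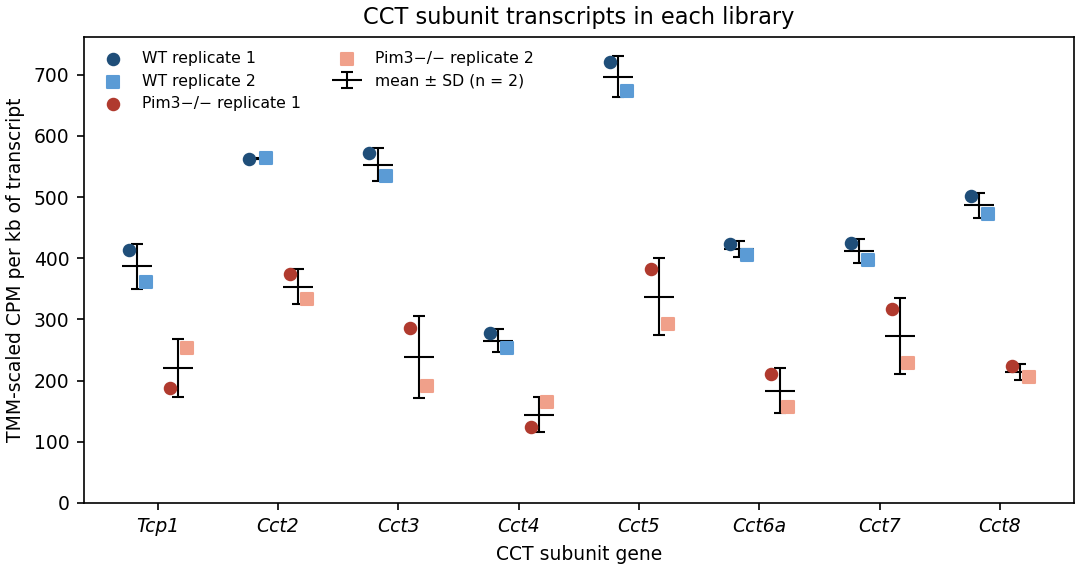
Level of each CCT subunit transcript in TMM-scaled CPM per kilobase of the principal transcript (for Cct6a, of a processed transcript). Points are single libraries, and bars show the mean and SD of the 2 libraries of a group. For every subunit both Pim3-/- points lie below both WT points, and Cct4 is the lowest subunit in each group.

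All 8 subunit transcripts were lower in both Pim3-/- libraries than in both WT libraries, and 7 of them had a Benjamini-Hochberg adjusted p under 0.05 in edgeR's quasi-likelihood test over all tested genes. Among all tested genes 16.2% were called lower in the same test, 17.6% higher and 33.8% in either direction. Both Pim3-/- libraries were below both WT libraries for 34.2% of all tested genes and above them for 38.3%. None of the 8 was called higher, and none was higher at an unadjusted p under 0.05 or with DESeq2, which called all 8 lower. Over all genes DESeq2 called 3177 lower and 2435 higher, beside 2987 lower and 3246 higher by edgeR's test. As a group the 8 had a median log2 fold change of -0.97, or -1.03 relative to the median of all tested genes. Separate cultures and clones were the replicates, so p-values measure the spread between these few samples. The median of the 8 was -0.96 without WT replicate 1 and -1.11 without WT replicate 2. In both of these fits the lone WT library was assumed to vary like the Pim3-/- libraries. Fewer of the 8 were then called lower by edgeR's test, and fewer of all tested genes were as well.

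On the side of the ring with lower ATP affinity, Cct8 had 1200.0 and 1131 CPM in WT and 534 and 491 CPM in Pim3-/- ESCs. The groups did not overlap, and Cct8 was 2.27-fold lower in Pim3-/- ESCs, with a log2 fold change of -1.18 (standard error 0.20, 95% interval -1.65 to -0.72, Benjamini-Hochberg adjusted p = 0.00683, edgeR's quasi-likelihood test). Cct6a, the zeta form made in most tissues, had 1040 and 994 CPM in WT against 515 and 386 CPM in Pim3-/- ESCs. It was 2.26-fold lower (log2 fold change -1.18, standard error 0.22, 95% interval -1.69 to -0.66, adjusted p = 0.00915). Cct3 had 1132 and 1055 CPM in WT against 564 and 377 CPM. It was 2.32-fold lower (log2 fold change -1.22, standard error 0.25, 95% interval -1.79 to -0.64, adjusted p = 0.0113), and its lowest value was in Pim3-/- replicate 2. The differences between Cct3, Cct8 and Cct6a in log2 fold change were smaller than their standard errors. Tcp1, the subunit first described and the source of the name TCP-1 ring complex, had 1010 and 882 CPM in WT against 458 and 621 CPM. It was 1.75-fold lower (log2 fold change -0.81, standard error 0.23, 95% interval -1.34 to -0.28, adjusted p = 0.0304), and here Pim3-/- replicate 1 was the lower library.

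On the side with higher ATP affinity, Cct5, the most abundant subunit in WT, had 1337 and 1247 CPM in WT against 707 and 543 CPM in Pim3-/- ESCs. It was 2.07-fold lower (log2 fold change -1.05, standard error 0.22, 95% interval -1.56 to -0.53, Benjamini-Hochberg adjusted p = 0.0126, edgeR's quasi-likelihood test). Cct4 had 691 and 627 CPM against 307 and 408 CPM. It was 1.84-fold lower (log2 fold change -0.88, standard error 0.22, 95% interval -1.38 to -0.38, adjusted p = 0.0195), and, like Tcp1, it was lower in replicate 1 than in replicate 2 of the Pim3-/- ESCs. Cct2 had 1101 and 1104 CPM against 732 and 653 CPM. It was 1.59-fold lower (log2 fold change -0.67, standard error 0.20, 95% interval -1.13 to -0.21, adjusted p = 0.0363). Cct7 had 1039 and 971 CPM against 774 and 560 CPM. Its groups did not overlap, but its log2 fold change of -0.59 (standard error 0.23, 95% interval -1.12 to -0.06) had an adjusted p of 0.0803 in edgeR's test and was not called, while DESeq2's Wald test called it (adjusted p = 0.0238). The median log2 fold change was -1.18 for the 4 subunits with lower affinity and -0.78 for the 4 with higher affinity, a grouping that was made after the values were seen and was not tested.

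**Figure D2:**
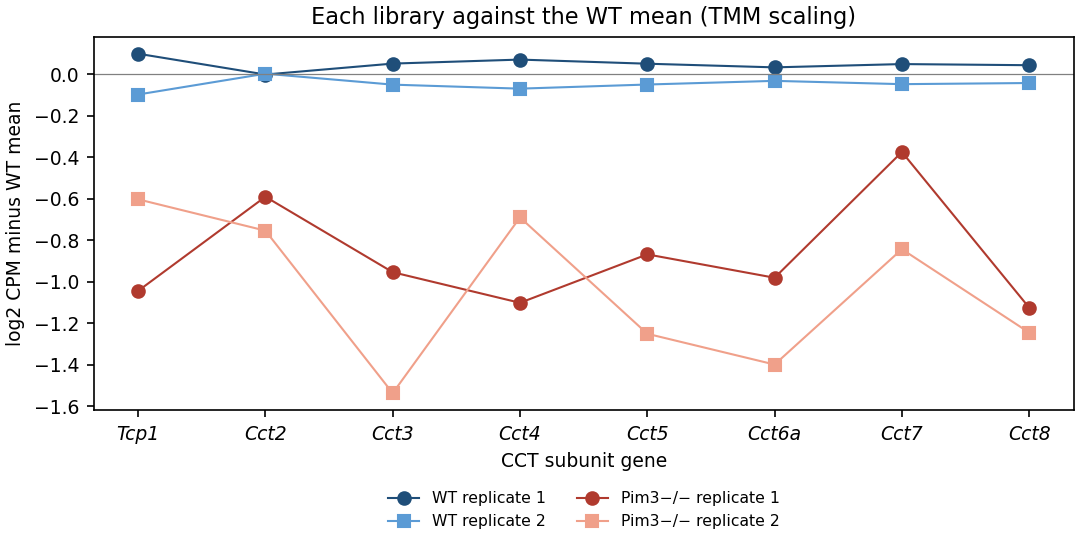
Log2 CPM of each subunit in each library minus the mean of the WT libraries, so that 0 on the vertical axis is the WT mean. The Pim3-/- points run from -0.38 (Cct7, replicate 1) to -1.54 (Cct3, replicate 2), replicate 1 is the lower one for Tcp1 and Cct4 only, and for Cct2 and Cct8 both replicates are close together.

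The scaling bears on these calls. Without TMM factors, on library totals, all 8 log2 fold changes stayed negative, but the median was -0.51 and 4 subunits were called lower by edgeR's test: Cct3 (-0.77, adjusted p = 0.0297), Cct5 (-0.60, adjusted p = 0.0478), Cct6a (-0.72, adjusted p = 0.0255) and Cct8 (-0.73, adjusted p = 0.0164). Tcp1, Cct2, Cct4 and Cct7 had adjusted p-values of 0.209, 0.377, 0.127 and 0.622 there, and the libraries of Cct7 overlapped. Over all 18444 tested genes, 1094 were called lower and 6594 higher in the same fit. As a share of all counts, the 8 genes together held 0.708% in each WT library, 0.536% in Pim3-/- replicate 1 and 0.473% in Pim3-/- replicate 2. The Wilson 95% intervals, which cover counting error only, were 0.705 to 0.711% and 0.704 to 0.711% in WT and 0.533 to 0.539% and 0.470 to 0.476% in Pim3-/- ESCs. In bulk RNA, lower levels in every cell and a lower share of expressing cells cannot be told apart.

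The decrease also has to be read against the level of the genes, since abundant transcripts as a whole were lower in Pim3-/- ESCs. The subunits had mean log2 CPM between 8.99 and 9.90 and ranked 141 to 253 by level among the tested genes. Of the 113 tested genes in that range, the 8 subunits included, 57 (50.4%) were called lower and 3 were called higher, and their median log2 fold change was -0.73. By comparison, genes with a mean log2 CPM below 0 had a median of 0.86, and 1.64% of them were called lower. The median of the subunits, -0.97, was thus below that of genes of their level, and 7 of 8 called stands beside 50.4% there rather than beside 16.2% alone. Over all tested genes, 5.01% had a lower log2 fold change than Cct3, 5.54% than Cct8 and 5.73% than Cct6a, and 21.9% had a lower one than Cct7.

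**Figure D3:**
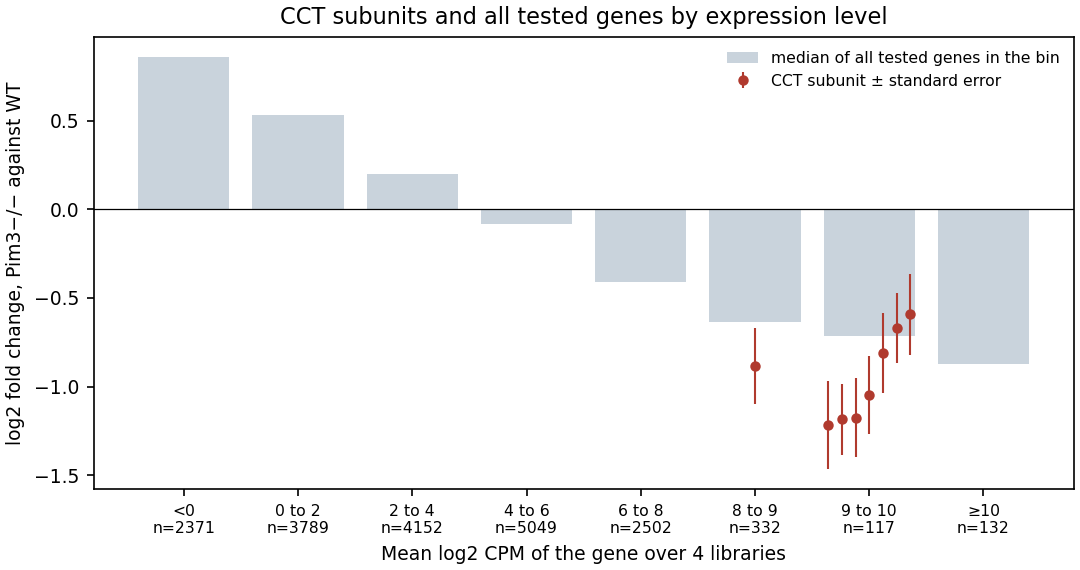
Log2 fold change of the CCT subunits (points, with standard errors) over bars that give the median of all tested genes in each bin of mean log2 CPM. The bars run from 0.86 in the lowest bin to -0.87 in the highest, and Cct2 and Cct7 lie close to the bar of their bin (-0.71) whereas Cct3, Cct6a and Cct8 lie below it.

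The subunits of one complex are needed in equal numbers, so the make-up of the CCT transcript pool, counts per kilobase of one subunit as a share of the sum over all 8, was compared next. Such shares do not depend on the scaling of the libraries. Cct2 held 14.4 and 15.4% of the pool in WT but 17.8 and 18.3% in Pim3-/- ESCs, a gain of 3.11 percentage points. Cct7 held 10.9% in each WT library but 15.1 and 12.6% in Pim3-/- ESCs, a gain of 2.93 points. These were the 2 subunits whose share was higher in both Pim3-/- libraries than in both WT libraries. Without Pim3-/- replicate 1 the difference of Cct7 was 1.66 points.

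The shares of Cct3, Cct8, Cct6a and Cct5 were lower in both Pim3-/- libraries. Cct3 went from 14.7 and 14.6% to 13.6 and 10.4%, and Cct8 from 12.9% in each WT library to 10.6 and 11.2%. Cct6a went from 10.9 and 11.1% to 9.99 and 8.60%, and Cct5 from 18.5 and 18.4% to 18.2 and 16.0%. The differences were -2.64 points for Cct3, -1.96 for Cct8, -1.68 for Cct6a and -1.36 for Cct5. Single Pim3-/- libraries weighed on them: without replicate 2 they were -1.06 for Cct3, -0.98 for Cct6a and -0.29 for Cct5, and without replicate 1 they were -4.21 for Cct3 and -2.42 for Cct5. The shares of Tcp1 (10.6 and 9.85% against 8.90 and 13.9%) and Cct4 (7.14 and 6.90% against 5.88 and 8.99%) overlapped between the groups. Relative to the same CCT sum, 68.6% of the 105 other genes of the subunits' level did not overlap between the groups, beside 6 of the 8 subunits here. Together the 4 subunits of the side with lower ATP affinity made up 49.0 and 48.4% of the pool in WT and 43.1 and 44.2% in Pim3-/- ESCs. An exact permutation test of 2 libraries against 2 cannot give a p below 0.333, so no p is given for a share.

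**Figure D4:**
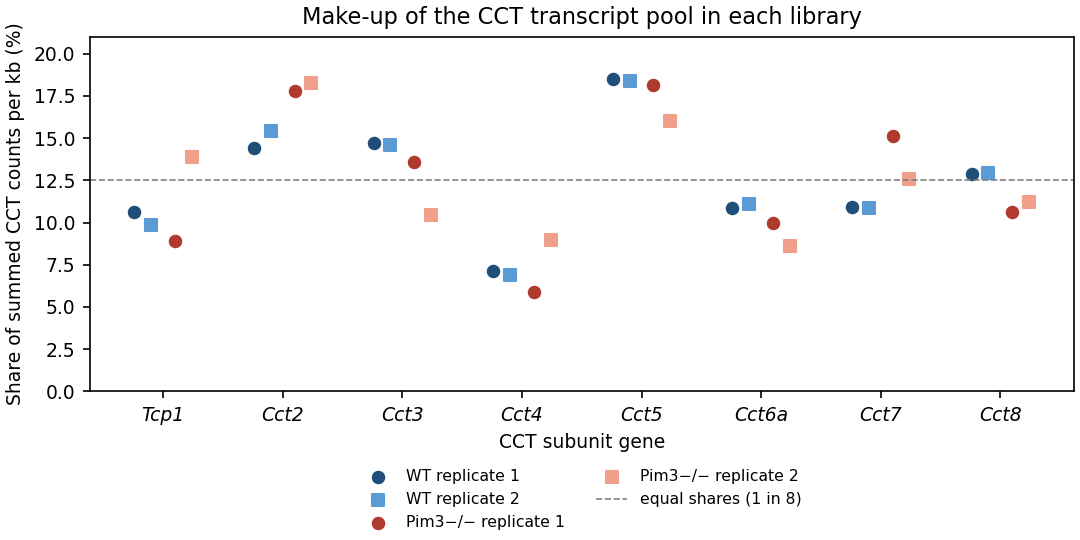
Share of each subunit in the summed CCT counts per kilobase, in percent, with 1 point per library and a dashed line at equal shares. Cct2 and Cct7 lie higher in both Pim3-/- libraries than in WT, Cct3, Cct5, Cct6a and Cct8 lie lower, and Tcp1 and Cct4 overlap.

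Ratios between single subunits were also free of the scaling. Of the 28 pairs, 12 had log2 ratios that did not overlap between WT and Pim3-/- ESCs, whereas 65.7% of the 5460 pairs among the 105 other genes of the subunits' level did not overlap. The pairs below are examples of the 12, chosen after their values were seen, and none was tested. The log2 ratio of Cct6a to Cct7, per kilobase, was -0.01 and 0.03 in WT and -0.60 and -0.55 in Pim3-/- ESCs. That of Cct2 to Cct8 was 0.16 and 0.25 in WT and 0.74 and 0.70 in Pim3-/- ESCs. The ratio of Tcp1 to Cct4 was also among the 12, but the difference was small, with 0.57 and 0.51 in WT against 0.60 and 0.63 in Pim3-/- ESCs.

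The Pim3-/- libraries also differed from each other. The log2 CPM of replicate 1 minus that of replicate 2 was -0.44 for Tcp1 and -0.41 for Cct4, which were lower in replicate 1. It was 0.58 for Cct3, 0.47 for Cct7, 0.42 for Cct6a and 0.38 for Cct5, which were higher in replicate 1. Cct2 and Cct8 differed least, by 0.16 and 0.12. The median absolute difference of the 8 subunits was 0.415, against 0.349 for all tested genes and 0.314 for genes of their level. Between the WT libraries it was 0.0985, against 0.180 and 0.128. The summed level of the 8 genes was lower than WT in each clone, with 8550 and 8011 CPM in WT and 4591 and 4039 CPM in Pim3-/- ESCs.

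Some counts are less certain than others. The sources used here do not state whether strand was used in counting, and Tcp1, Cct6a, Cct7 and Cct8 overlap a protein-coding gene on the other strand. Tcp1 shares 141 bases with Mrpl18 (mitochondrial ribosome, log2 fold change -1.29, adjusted p = 0.00683 by edgeR's test) and 571 bases with Acat3 (-0.95, adjusted p = 0.0139). Cct6a shares 452 bases with Psph (serine synthesis, -1.02, adjusted p = 0.0509), Cct7 shares 214 bases with Pradc1 (-0.18, adjusted p = 0.611) and Cct8 shares 192 bases with Usp16 (a deubiquitinase, -0.06, adjusted p = 0.795). Usp16 was thus not called although Cct8, which it overlaps, was. Of the sequences with near-identical stretches, Acat2, a paralog of Acat3, matches 445 bases of Tcp1 on the other strand at 98.7% identity. It had 1342 to 2117 counts and was not called (log2 fold change -0.45, adjusted p = 0.146), and whether reads were shared with it was not tested. The pseudogenes held almost no counts: Cct3-ps1 had 0 counts in each library, and Gm5380, a copy of part of Cct7, had 0 to 4.

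The genes that act with CCT were then read as groups of genes named for their role. The 82 tested genes in these groups had a median log2 fold change of -0.71. Of them, 43 were called lower and 0 were called higher by edgeR's quasi-likelihood test. That is 52.4% called lower, against 16.2% of all tested genes and 36.2% of all tested genes when these are taken from the same bins of level as the listed genes. With DESeq2, 47 of the listed genes were lower and 0 higher, beside 3177 lower and 2435 higher over all genes. None of the listed genes was higher at an unadjusted p under 0.05. When either WT library was left out, fewer of them were called lower, as was true of all tested genes. With library totals, 20 were lower and 6 were higher, beside 1094 lower and 6594 higher among all 18444 tested genes. The 6 were Tbcc, Tbcd, Hsf1 and the clients Vhl, Rptor and Stat3, which were named for this call after their values were seen. Of the genes described below as not called, Pdcl2, Arl2, Ruvbl2, Rpap3, Uri1, Actg1, Gnb2, Strap, Hsp90ab1, Hspa9 and Hsp90b1 had negative log2 fold changes with TMM and positive ones with library totals. The adjusted p-values of the groups below are those of edgeR's test on TMM-scaled counts.

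Prefoldin, the 6-subunit complex that hands unfolded actin and tubulin to CCT, fell as a whole: 6 of 6 subunit transcripts were called lower, against 36.5% of genes in the same bins of level, with a median log2 fold change of -1.18. With library totals 4 of 6 were called lower. Pfdn1 had 306 and 252 CPM in WT and 112 and 117 CPM in Pim3-/- ESCs (log2 fold change -1.29, standard error 0.19, adjusted p = 0.00514). Pfdn5 had 238 and 201 CPM in WT against 94.0 and 96.1 CPM (-1.21, standard error 0.18, adjusted p = 0.00526). Vbp1, which encodes prefoldin subunit 3, changed least, from 46.8 and 46.7 CPM to 26.9 and 33.2 CPM (-0.64, standard error 0.18, adjusted p = 0.0282). Summed per kilobase, prefoldin transcripts came to 0.251 and 0.225 of the CCT sum in WT and to 0.206 and 0.195 in Pim3-/- ESCs.

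Among the phosducin-like co-chaperones, which bind CCT and modulate folding of its clients, 2 of 3 were called lower, against 21.8% of genes in the same bins of level. With library totals only Pdcl3 was, and Pdcl had an adjusted p of 0.0765. Pdcl3 had 126 and 112 CPM in WT and 64.2 and 42.8 CPM in Pim3-/- ESCs (log2 fold change -1.15, adjusted p = 0.00982), and Pdcl had a log2 fold change of -0.97 (adjusted p = 0.0114). Pdcl2, a germ cell gene, was counted 40 to 66 times and was not called (-0.22, adjusted p = 0.664). The tubulin folding cofactors, which assemble the alpha and beta tubulin released by CCT into the dimer, divided: Tbca (-0.90, adjusted p = 0.0112), Tbcb (-1.14, adjusted p = 0.00996) and Tbce (-0.98, adjusted p = 0.00662) fell. Tbcc (0.33, adjusted p = 0.246) and Tbcd (0.10, adjusted p = 0.636) were not called, nor was Arl2, the small GTPase bound by Tbcd (-0.40, adjusted p = 0.0872). The 3 of 6 called lower stand beside 28.7% of genes in the same bins of level, and with library totals 2 were lower and 2 were higher.

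Of the R2TP and prefoldin-like genes, a separate co-chaperone system that assembles large complexes, 4 of 7 were called lower, against 31.3% of genes in the same bins of level (3 with library totals). Ruvbl1, an AAA ATPase, had 226 and 224 CPM in WT and 118 and 82.3 CPM in Pim3-/- ESCs (log2 fold change -1.17, adjusted p = 0.00869). Pih1d1 (-1.13, adjusted p = 0.00483) and the prefoldin-like Uxt (-1.12, adjusted p = 0.00586) also fell. Ruvbl2, the partner of Ruvbl1, overlapped between the groups (-0.43, adjusted p = 0.306), and Uri1 and Rpap3 were not called (adjusted p = 0.299 and 0.726).

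Of the actin and tubulin transcripts, which encode the main clients, 8 of 16 were lower and 0 higher, against 39.9% lower among genes in the same bins of level, with a median log2 fold change of -0.74. With library totals 3 were lower. Tuba1b had 2491 and 2322 CPM in WT and 1259 and 779 CPM in Pim3-/- ESCs (log2 fold change -1.24, adjusted p = 0.0148). Actb fell from 1337 and 1352 CPM to 725 and 864 CPM (-0.76, adjusted p = 0.0282), but Actg1, the other cytoplasmic actin, overlapped, with 1144 and 1155 CPM against 883 and 1389 CPM (-0.02, adjusted p = 0.965). Tuba1a fell (-1.06, adjusted p = 0.0143), whereas Tubb5, the main beta tubulin, with 2315 and 2266 CPM against 2023 and 1150 CPM, was not called (-0.53, adjusted p = 0.197), nor was Tubb4b (-0.88, adjusted p = 0.0683). The near-identical tubulin and actin genes can share reads, which makes their single values uncertain. Summed per kilobase, actin and tubulin transcripts came to 1.44 and 1.48 times the CCT sum in WT and to 1.67 and 1.56 times in Pim3-/- ESCs, higher in both Pim3-/- libraries than in both WT libraries.

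Of 14 other clients, 4 (28.6%) were called lower and 0 higher, against 35.2% lower among genes in the same bins of level. With library totals 0 were lower and 3 higher. The group had a median log2 fold change of -0.27 that turned to 0.19 with library totals. Cdc20, the activator of the anaphase-promoting complex, was lower (-1.07, adjusted p = 0.0118), as were the mitotic kinase Plk1 (-0.72, adjusted p = 0.0284) and the phosphatase subunit Ppp4c (-0.76, adjusted p = 0.0185). The G protein beta subunits Gnb1 (0.05, adjusted p = 0.864) and Gnb2 (-0.27, adjusted p = 0.261) and the WD-repeat protein Strap (-0.37, adjusted p = 0.150) were not called.

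Other chaperones served for comparison. Both genes of the mitochondrial chaperonin, the bacterial-type relative of CCT, were lower, against 50.4% of genes in the same bins of level. Hspe1 had 854 and 714 CPM in WT and 329 and 260 CPM in Pim3-/- ESCs (log2 fold change -1.41, adjusted p = 0.00562), and Hspd1 had 1076 and 1121 CPM against 635 and 482 CPM (-0.98, adjusted p = 0.0151). With library totals Hspe1 was still called lower and Hspd1 was not (adjusted p = 0.0754). In the cytosolic Hsp90 and Hsp70 system 11 of 18 (61.1%) were lower and 0 higher, against 43.9% lower among genes in the same bins of level, with a median of -0.81 (6 lower and 0 higher with library totals). Hspa8, the constitutive Hsp70, fell from 4086 and 3900 CPM to 1520 and 1153 CPM (-1.58, adjusted p = 0.00572), and Hsp90aa1 from 3794 and 3739 CPM to 1127 and 1498 CPM (-1.52, adjusted p = 0.0062). Hsp90ab1, the most abundant cytosolic Hsp90, was not called (-0.29, adjusted p = 0.418).

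In the ER and mitochondria, 1 of 4 Hsp70 and Hsp90 genes, Hspa5, was lower (-0.91, adjusted p = 0.0207), against 45.0% of genes in the same bins of level, and Hspa9, Hsp90b1 and Trap1 were not called (adjusted p = 0.837, 0.622 and 0.0991). Among the heat shock factors, Hsf1 was not called (0.12, adjusted p = 0.599) and Hsf2 was lower (-0.59, adjusted p = 0.0364), against 22.4% of genes in the same bins of level. The CCT-like paralogs were far less abundant than the subunits: Cct6b, the testis form of the zeta subunit, was counted 25 and 36 times in WT against 50 and 46 times in Pim3-/- ESCs (0.33, adjusted p = 0.519), and Cct8l1, with 1 to 7 counts, was not tested. Of the chaperonin-like proteins that help to assemble the ciliary BBSome, Mkks was lower (-0.91, adjusted p = 0.0140), and Bbs10 (0.18, adjusted p = 0.691) and Bbs12 (0.06, adjusted p = 0.878) were not called. Thus 1 of 4 tested paralogs was called lower, against 11.1% of genes in the same bins of level. With library totals Hspa5, Hsf2 and Mkks were no longer called (adjusted p = 0.142, 0.570 and 0.105).

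**Figure D5:**
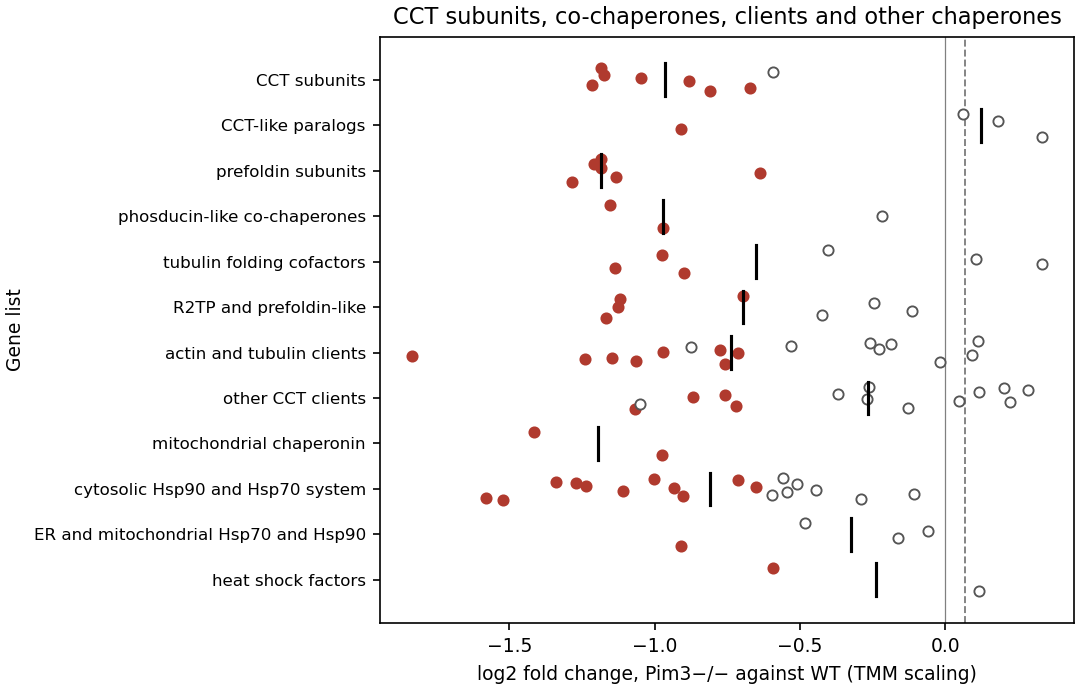
Log2 fold change of each tested gene, grouped by role, with the CCT subunits first. Filled points passed an adjusted p of 0.05, black lines are group medians and the dashed line is the median of all tested genes (0.07). The prefoldin points all lie below 0, and the median of the other clients (-0.27) is nearer to the dashed line.

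The tested genes, other than the subunits, whose pattern over the 4 libraries lay closest to the mean pattern of the subunits, by root mean square difference of centred log2 CPM, were Trappc13 (vesicle tethering, 0.0139), Ltv1 (assembly of the small ribosomal subunit, 0.0164), Dnajb1 (an Hsp40 co-chaperone, 0.0183), Mrps22 (mitochondrial ribosome, 0.0188) and Phax (snRNA export, 0.0206). These 5 were picked by this distance, so their closeness is a description. The subunits, which were not picked by it, lay between 0.0929 (Cct5) and 0.226 (Tcp1) from that mean.

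Markers of other cell states moved between the groups as well. Of the primitive endoderm markers, 6 of 6 tested were higher in Pim3-/- ESCs, with summed levels of 2.97 to 5.12 CPM in WT and 18.7 to 33.7 CPM in Pim3-/- ESCs. Of the two-cell-like markers 7 of 8 were higher, with 9.57 to 12.0 CPM against 37.8 to 126 CPM. Some passed the filter on low counts only through the Pim3-/- libraries, so a call in the other direction was hardly possible for them. Sox7 had 3 and 0 counts in WT against 91 and 67, Sox17 had 1 and 5 against 85 and 10, and Duxf3 had 3 and 5 against 81 and 37. Of the 3789 tested genes with a mean log2 CPM from 0 to 2, 889 were called higher, with a median log2 fold change of 0.53. The trophoblast markers were higher in 2 of 6, with summed levels of 136 to 138 CPM against 109 to 138 CPM. Of the neuroectoderm markers 1 of 4 was called lower, Tubb3, which is also in the tubulin group above. Tubb3 had 127 and 120 CPM in WT against 85.6 and 58.7 CPM. It made up most of their summed level, 129 to 138 CPM against 74.7 to 95.7 CPM. Nes (log2 fold change 0.78), Sox1 (1.59) and Pax6 (-1.11) were not called. Of the fibroblast markers 0 of 2 tested and of the mesoderm markers 0 of 3 were called by edgeR's test, with Lum at 0 counts in all libraries. With library totals Tubb3 was no longer called, and Nes, Sox1, Hand1 (trophoblast), Col1a1 (fibroblast) and Tcstv1 (two-cell-like) were called higher as well. The part of these markers in the lower CCT levels was not tested.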

How the data were processed

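The authors deposited raw counts per gene for 2 WT and 2 Pim3-/- libraries, without normalization. Their paper names Cutadapt and Hisat2 with mm10 and Ensembl genes, whereas the submitters' processing notes list Trim Galore, STAR, featureCounts and GRCm38. Strand and multimapping settings are not given in the sources used here.

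Genes were kept by filterByExpr (minimum count 10, minimum total 15), scaled by TMM and tested with glmQLFit and glmQLFTest of edgeR 4.0.16 in R 4.3.3, with adjustment over 18444 genes. DESeq2 1.42.0 was an alternative, with other scalings, filters, a replicate block and omission of each library. Levels per kilobase used the APPRIS principal transcript, or else the longest basic one, of GENCODE. Figures were drawn with matplotlib 3.10.9 in Python 3.11.15. The 8 subunits and the lists were chosen with earlier results of these data known. Of the clients, R2TP and Hsp70 and Hsp90 lists, the 6 genes with the highest mean CPM could be named. The TE table was not used.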

Additional observations from a re-analysis of the deposited data

How the results depend on the processing

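All 8 log2 fold changes of the subunits were negative under every alternative tried. With library totals 4 subunits were called lower, the median was -0.51, and Cct2 (-0.22), Cct4 (-0.43) and Tcp1 (-0.36) were no longer called. In that fit 20 partner genes were lower and 6 higher, beside 1094 lower and 6594 higher among all 18444 tested genes. With at least 10 counts in every library Cct2 (-0.59) was not called and the median was -0.89, and DESeq2's Wald test added Cct7 (-0.64). With all annotated exons as length, an alternative added after seeing the data, the share of Cct2 differed by 4.11 points and that of Cct8 by -2.56 points, while those of Cct3 (-1.37 points) and Cct7 (1.82 points) were smaller than with the principal transcript. The calls rest on few libraries. Fewer subunits, partner genes and tested genes as a whole were called lower when either WT library was left out. For all 3 sets the fewest were called lower without WT replicate 1 and the most without Pim3-/- replicate 1. The ranges of calls below are thus not particular to the subunits or partner genes. Leaving out each library in turn, with the lone library of a group assumed to vary like the others, the number of subunits called lower ran from 0 to 8 and their median from -1.11 to -0.96, and 3 to 64 partner genes were lower and 0 to 1 higher. The log2 fold changes then ran from -1.06 to -0.62 for Tcp1, -0.77 to -0.61 for Cct2, -1.56 to -0.97 for Cct3, -1.12 to -0.71 for Cct4, -1.27 to -0.89 for Cct5, -1.42 to -0.998 for Cct6a, -0.86 to -0.39 for Cct7 and -1.31 to -1.14 for Cct8. The differences in share ran from -1.32 to 3.68 points for Tcp1, 2.62 to 3.604 for Cct2, -4.21 to -1.06 for Cct3, -1.14 to 1.97 for Cct4, -2.42 to -0.29 for Cct5, -2.37 to -0.98 for Cct6a, 1.66 to 4.20 for Cct7 and -2.27 to -1.65 for Cct8, and so changed sign for Tcp1 and Cct4.

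Same-numbered libraries did not deviate together (correlation of deviations 0.02). With 2 libraries per group this cannot show whether same-numbered samples were handled together. With a replicate block 6 subunits were called lower, and Cct2 was not (-0.67, adjusted p = 0.0805 by edgeR's test). The median was -0.98 and 45 partner genes were lower. Over all tested genes, 3272 were called lower and 3403 higher in that fit, beside 2987 and 3246 without the block.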
